A study of Daphnia magna with 144 samples.

Results

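Beta-benzene hexachloride, Methoxychlor, Toxaphene and Aroclor are chlorinated compounds that were each given to whole Daphnia magna, a freshwater water flea used in toxicity testing. They were chosen by name and by the solvent that carried them, and they are 4 of the 36 chemicals to which the study exposed Daphnia. Each chemical had 4 one-colour (Cy3) microarrays of total RNA, so the compounds account for 16 arrays. The series was made to predict chemical exposure from gene expression, and the comparisons below ask which changes these 4 compounds share and which belong to 1 of them.

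The groups were Beta-benzene hexachloride at 146 mg/L in Ethanol, Methoxychlor at 0.0944 mg/L in Ethanol, Toxaphene at 0.172 mg/L in Ethanol and Aroclor at 0.166 mg/L in Methanol. In each group 20 animals that were 14 days old were kept for 24 h in 1 L of COMBO medium at 1/10 of the LC50, the median lethal concentration. The doses therefore match as a share of the lethal concentration and in time, but not in mg/L. A sample is a pool of whole animals, so the labels give no single-animal values, and they do not say whether the 4 arrays of a compound came from separate exposures. The p-values rest on the spread between arrays of the same chemical, pooled for each probe over all 36 chemicals. They do not measure the spread of a compound's own 4 arrays alone, and the pooled spread may be partly technical.

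Beta-benzene hexachloride is a stereoisomer of hexachlorocyclohexane, the family that includes lindane. Methoxychlor is an analogue of DDT that carries methoxy groups where DDT has chlorine atoms on its rings. Toxaphene is a mixture of chlorinated camphenes, and Aroclor is a trade name for mixtures of polychlorinated biphenyls, of which the labels give no grade. In insects, DDT-type compounds are known to hold sodium channels open, while lindane and toxaphene block channels gated by the neurotransmitter GABA. In vertebrates, some polychlorinated biphenyls activate the aryl hydrocarbon receptor and the detoxifying enzymes it controls. The array probes could not be tied to genes of these pathways: 0 of the probe names matched any of the 28335 RefSeq genes of the species, so probes are given by their own names.

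All 16 arrays were of like brightness. The median foreground of an array lay between 77 and 92 units, the median background between 35 and 39, and 57.9% to 87.7% of its probes stood above the negative control spots. Within 3 of the 4 compounds the arrays fell into close pairs. Arrays 1 and 2 and arrays 3 and 4 of Methoxychlor correlated at 0.999 within a pair and at up to 0.997 across pairs, over all scanner probes, and Toxaphene had the same pairs, with up to 0.996 across them. For Beta-benzene hexachloride the pairs were 1 with 4 and 2 with 3. Aroclor showed no such pairing. Few probes differed by 1 log2 unit or more between the pairs (5 in Beta-benzene hexachloride, 11 in Methoxychlor, 21 in Toxaphene and 0 in Aroclor, of 14276). With each pair averaged to 1 value, an alternative chosen after seeing the data, none of the counts of probes below that it was run on moved by more than 1.5 times.

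The change against the vehicle is the authors' deposited log2 ratio of each array to the control of its own solvent. A probe was called when the mean of its 4 ratios differed from 0 at a limma Benjamini-Hochberg adjusted p under 0.05 and by at least 1 on the log2 scale. All 3 Ethanol compounds share 1 Ethanol control, Aroclor has the Methanol control, and the spread of the control arrays is not in the error. RNA came from whole animals, so a lower level can be less RNA per cell or fewer cells that make it, and these cannot be told apart.

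Methoxychlor changed the most probes and Aroclor the fewest. Methoxychlor raised 1482 probes (11% of the 13481 tested) over the Ethanol control and lowered 1671 (12.4%). Toxaphene had 799 higher (5.93%) and 871 lower (6.46%), and Beta-benzene hexachloride had 460 higher (3.41%) and 817 lower (6.06%). Against the Methanol control, Aroclor had 607 higher (4.5%) and 535 lower (3.97%). The median absolute log2 ratio over all probes followed the same order, at 0.55 in Methoxychlor, 0.38 in Toxaphene, 0.31 in Beta-benzene hexachloride and 0.25 in Aroclor. Without the minimum change, 69.9%, 58.9%, 51.2% and 42.2% of probes passed the adjusted p in that order, so the count of calls rests on the minimum. Quantile normalization of the ratios brought the totals close together, at 2424 in Methoxychlor, 2329 in Beta-benzene hexachloride, 2311 in Toxaphene and 2130 in Aroclor. Methoxychlor stayed first and Aroclor last, but the distances between the compounds depend on the scaling. The split in Beta-benzene hexachloride turned to 1198 higher and 1131 lower.

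**Figure D1:**
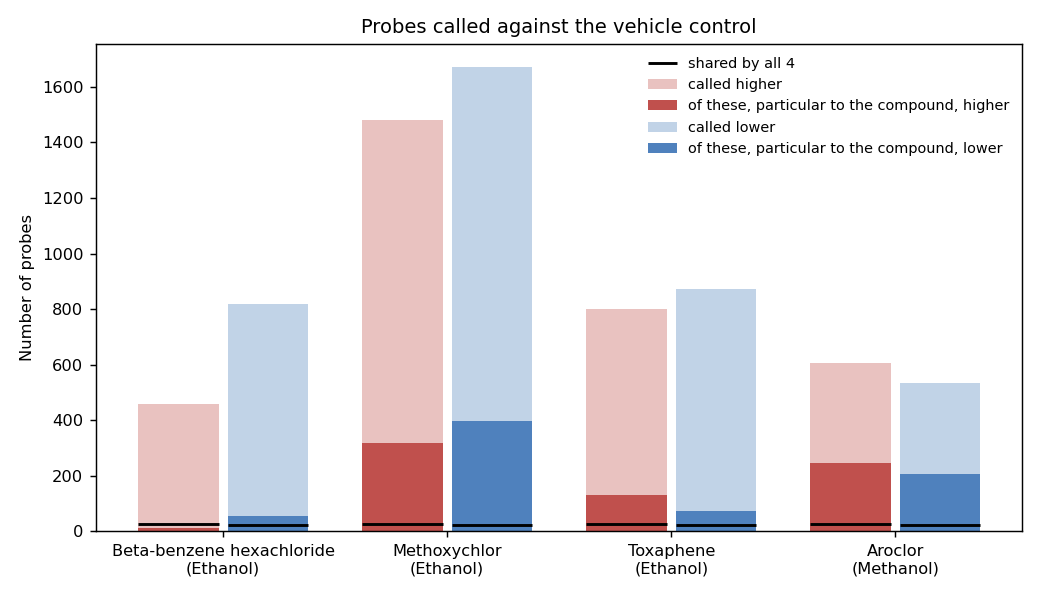
Number of probes called higher (red) or lower (blue) than the vehicle control in each compound, over 13481 probes. The dark part of a bar counts probes that also differ from each of the other 3 compounds (14 to 320 higher, 57 to 398 lower), and the black line marks the probes shared by all 4 (26 higher, 22 lower).

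Of the 13481 probes, 8650 were called in none, 3104 in 1 compound, 1117 in a pair of compounds, 536 in 3 and 74 in 4. Among those 74, 26 were higher in all 4 (0.193% of probes), 22 were lower in all 4 (0.163%) and 26 went in opposite directions. The 48 shared changes became 96 with quantile-normalized ratios and 980 without the minimum change. The 3 Ethanol compounds, which share their control, had 123 higher calls in common. In Aroclor, 26 of these were also higher, 89 were not called and 8 were lower. Of their 274 lower calls, 22 were lower in Aroclor, 245 were not called and 7 were higher. Over all 13481 probes, 4.5% were called higher and 3.97% lower in Aroclor.

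Many other chemicals in Ethanol moved the shared probes the same way as well. Of the 12 other Ethanol chemicals, which are set against the same Ethanol control, a median of 7.5 also had a probe of the higher list higher (3 to 12), and a median of 8 had a probe of the lower list lower (1 to 10). None of the 48 shared probes was without such a call in another Ethanol chemical. The same count over all probes was not made. Among the other Methanol chemicals, 5 higher and 7 lower shared probes were called the same way in neither, and 3 of each list in both. In chemicals of the remaining vehicles, opposite calls were about as common. The median was 5 the same way and 6 the opposite way for the higher list, and 2.5 and 3 for the lower. The probe with the fewest was DM02230, lower in all 4 compounds and in 1 of the 14 other chemicals of both vehicles, followed by DM06449 with 2. Both were picked out here after their values were seen.

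Only 7 of the 26 higher and 9 of the 22 lower shared probes stood above background on all 16 arrays. How many of all probes did so was not counted. The probes named as shared are the 6 higher and 6 lower, measured in all 4 compounds, with the largest smallest ratio. DM12319 had larger ratios, with means of 6.74 in Beta-benzene hexachloride, 5.40 in Methoxychlor, 5.40 in Toxaphene and 6.72 in Aroclor. It falls outside that rule, which also asks for a measurable control, and it is named after its values were seen.

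DM00150 led the named higher probes, although 8 of the 12 other Ethanol chemicals were also called higher there. Its log2 ratios were 2.38, 1.95, 2.27 and 2.04 in Beta-benzene hexachloride (mean 2.16 ± 0.20, SD, n = 4, 4.48-fold, adjusted p = 6e-28), the highest of the 4 compounds. The ratios were 1.64, 1.21, 1.20 and 1.08 in Methoxychlor (mean 1.28, adjusted p = 6.2e-15) and 1.54, 1.46, 1.84 and 1.61 in Toxaphene (mean 1.62, adjusted p = 8.5e-20). In Aroclor they were 1.15, 1.19, 1.14 and 1.57 (mean 1.26, adjusted p = 7.5e-14). All 16 arrays thus lay above their control, and the Beta-benzene hexachloride arrays lay above all 12 others. The Beta-benzene hexachloride mean exceeded that of Methoxychlor by 0.88 (adjusted p = 6e-05 over the 6 pairs) and that of Aroclor by 0.90 (adjusted p = 4.2e-05), both under the minimum of 1. Methoxychlor and Aroclor, whose means differ by 0.02, have a 95% interval of -0.37 to 0.40 for that difference. On the scanner, Beta-benzene hexachloride differed from the mean of the other Ethanol chemicals by -0.17 (adjusted p = 0.17). Methoxychlor differed from it by -0.63 (adjusted p = 3.9e-10) and Toxaphene by -0.51 (6.2e-07). Aroclor differed from the other Methanol chemicals by -0.93 (3.4e-13). The 4 compounds thus did not stand above the mean of the other chemicals of their vehicle at this probe.

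DM06157 was higher in all 4 but most in Aroclor. Its ratios there were 3.47, 3.54, 3.54 and 3.5, an 11.4-fold increase over the Methanol control (adjusted p = 4.3e-19). In the Ethanol compounds the mean ratios were 1.25, 1.14 and 1.61 for Beta-benzene hexachloride, Methoxychlor and Toxaphene, and no array of theirs exceeded 1.71. Aroclor differed from each of them: Beta-benzene hexachloride minus Aroclor was -2.26 (adjusted p = 3.3e-06), Methoxychlor minus Aroclor -2.38 (1.1e-06) and Toxaphene minus Aroclor -1.90 (8.3e-05). On the scanner the gap was smaller, with levels of 10.5 to 10.6 in Aroclor and 9.77 to 10.3 on the 12 arrays of the Ethanol compounds, which did not overlap.

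DM07400 rose most in Toxaphene, with ratios of 3.08, 3.0, 3.27 and 3.32 (9-fold, adjusted p = 9.6e-21). Its means were 1.6 in Beta-benzene hexachloride, 2.31 in Methoxychlor and 1.15 in Aroclor. Beta-benzene hexachloride minus Toxaphene was -1.57 (adjusted p = 0.00015) and Toxaphene minus Aroclor 2.02 (adjusted p = 1.4e-06). DM12869 had means of 1.24, 2.18, 1.12 and 1.99, and DM06605 of 1.96, 1.11, 1.58 and 1.12, in Beta-benzene hexachloride, Methoxychlor, Toxaphene and Aroclor.

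DM12790 was the least even of the named higher probes. Its ratios in Beta-benzene hexachloride were 4.48, 4.26, 4.39 and 4.14, a 19.9-fold rise. The Methoxychlor ratios were 2.33, 0.46, 0.92 and 0.70, so the mean of 1.10 (adjusted p = 0.011) rests on array 1. Without it the mean was 0.69 (adjusted p = 0.18), and with the error widened for the control arrays the adjusted p was 0.087. It was the only 1 of the 93 named changes against the vehicle that failed the adjusted p under an alternative that was run. Whether the other named changes kept the minimum change under each alternative was not tested.

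DM12610 was the most even of the 6 named shared lower probes. Its ratios were -1.32, -1.24, -1.37 and -1.30 in Beta-benzene hexachloride, -1.65, -1.66, -1.62 and -1.81 in Methoxychlor, -1.58, -1.48, -1.82 and -1.88 in Toxaphene, and -1.38, -1.37, -1.31 and -1.35 in Aroclor. The Methoxychlor arrays do not overlap those of Beta-benzene hexachloride or Aroclor, but none of the 6 pair differences passed the test. Their 95% intervals reached from -0.83 (Toxaphene minus Aroclor) to 0.88 (Beta-benzene hexachloride minus Toxaphene). Differences of up to 0.88 are thus within the error, which is pooled over all 36 chemicals and is not that of these arrays alone.

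DM06571 was lowest in Toxaphene, with ratios of -2.55, -3.23, -2.57 and -2.74 (mean -2.77, adjusted p = 1.9e-18). The means were -1.52 in Beta-benzene hexachloride, -1.90 in Methoxychlor and -1.70 in Aroclor. Toxaphene lay below Beta-benzene hexachloride (a difference of 1.25 for Beta-benzene hexachloride minus Toxaphene, adjusted p = 0.0016) and below Aroclor (-1.07 for Toxaphene minus Aroclor, adjusted p = 0.0075). DM11007 had means of -1.38, -1.93, -2.25 and -1.32, DM11176 of -1.55, -1.78, -1.27 and -1.98, and DM05643 of -1.86, -1.20, -1.45 and -1.24, in the order Beta-benzene hexachloride, Methoxychlor, Toxaphene and Aroclor.

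DM04057 had the widest span of the named shared probes. It fell by 7.68 in Toxaphene, where the 4 ratios were -7.75, -7.68, -7.57 and -7.71, and by 6.56 in Aroclor, where they were -6.58, -6.61, -6.55 and -6.49. In Beta-benzene hexachloride it fell by 1.78 and in Methoxychlor by 1.17. Methoxychlor and Beta-benzene hexachloride did not pass the test against each other (a difference of -0.62 for Beta-benzene hexachloride minus Methoxychlor, 95% interval -1.18 to -0.05, adjusted p = 0.063), while Methoxychlor minus Toxaphene was 6.51 (adjusted p = 5.4e-41).

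**Figure D2:**
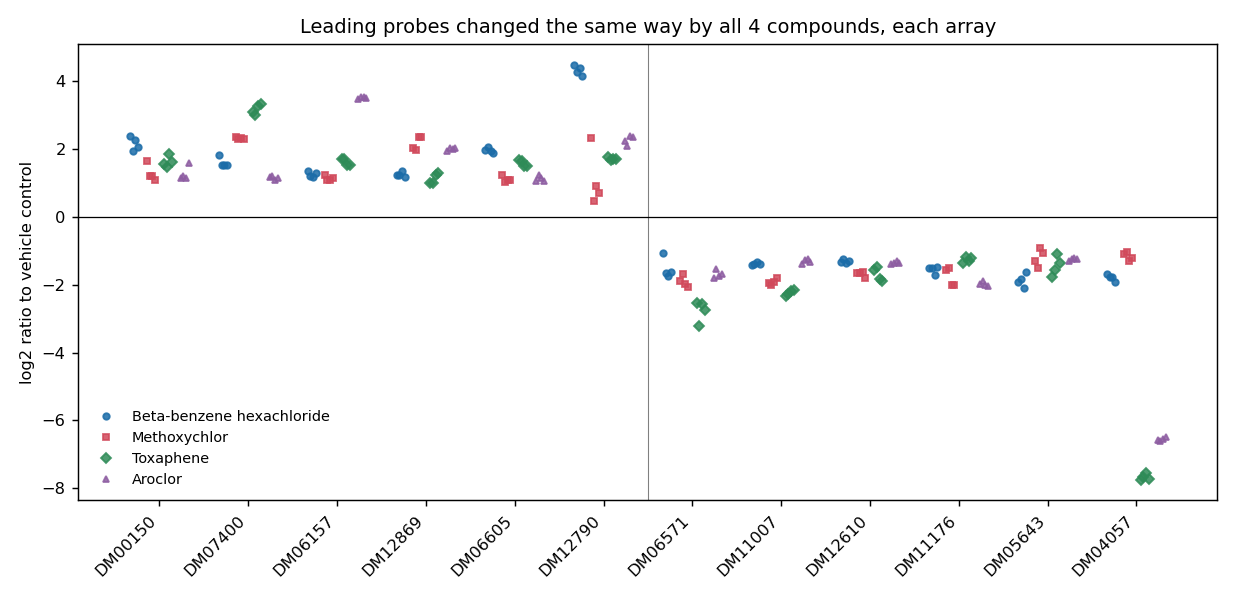
Deposited log2 ratio to the vehicle control on each of the 16 arrays for the 12 named probes that changed the same way in all 4 compounds, 6 higher on the left and 6 lower on the right. Most means lie between 1 and 4 units from 0, and DM04057 lies at -7.68 in Toxaphene and -6.56 in Aroclor but at -1.78 and -1.17 in the other 2 compounds.

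Over the whole list of 48 shared probes, 26 differed in none of the 6 pairs of compounds and the other 22 in at least 1. The pair Beta-benzene hexachloride minus Methoxychlor differed at 6 probes, Beta-benzene hexachloride minus Toxaphene at 13, and the other 4 pairs at 10 to 12. Over all 13481 probes, the first of these pairs called 7.51% higher and 7.42% lower, and the second 3.43% and 4.6%. The other 4 pairs called 5.81% to 12.3% higher and 7.2% to 13.6% lower. For 10 to 15 probes of a pair the 95% interval of the difference lay within 1 log2 unit of 0. The remaining 23 to 31 probes of a pair were not called although their intervals reach 1 unit or more, so they do not show that the compounds act alike there.

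To find changes of 1 compound, a probe had to be called against the vehicle and to differ in the same direction, by the same thresholds, from each of the other 3 compounds. Methoxychlor had 320 such higher probes (2.37% of 13481) and 398 lower (2.95%). Aroclor had 245 higher (1.82%) and 207 lower (1.54%), Toxaphene 130 higher (0.964%) and 74 lower (0.549%), and Beta-benzene hexachloride 14 higher (0.104%) and 57 lower (0.423%), a split that quantile normalization of the ratios turned to 136 and 131. That setting also put Aroclor (490 and 409, 899 in all) ahead of Methoxychlor (418 in all) and gave 309 in Toxaphene, so the order of the compounds depends on it. Some of these probes are not confined to 1 compound, since a larger change in the same direction also counts.

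The same probes were then set against the other chemicals of the same vehicle on scanner values, a comparison that uses no control array. Its error is the spread between arrays of the same chemical. The spread between the other chemicals is left out, so its p-values do not measure how unusual a compound is among chemicals. Of the particular probes with a scanner value, 49.4% of the Methoxychlor higher and 60.7% of the lower probes were also called there in the same direction. For Toxaphene it was 60.5% and 48.6%, for Beta-benzene hexachloride 38.5% and 10.5%, and for Aroclor, which has only 2 other Methanol chemicals, 5.76% and 16.9%. Each list was picked on the same arrays of the compound that enter this comparison. Part of these shares is therefore built in, and they are no independent check of the lists. Over all 14276 scanner probes, this comparison called 393 higher (2.75%) and 392 lower (2.75%) in Methoxychlor, 176 (1.23%) and 92 (0.644%) in Toxaphene, 87 (0.609%) and 34 (0.238%) in Beta-benzene hexachloride, and 64 (0.448%) and 167 (1.17%) in Aroclor. Centring arrays on their median in place of quantile normalization turned the split to 853 higher and 243 lower in Methoxychlor, 342 and 56 in Toxaphene, and 158 and 125 in Aroclor. Floored foreground minus background raised the totals of 785, 268, 121 and 231 to 2291 in Methoxychlor, 869 in Toxaphene, 407 in Beta-benzene hexachloride and 690 in Aroclor. With deposited ratios they were 1873, 654, 300 and 727.

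Of the Methoxychlor higher list, 290 of 320 probes (90.6%) lay above the mean of each of the 12 other Ethanol chemicals. The list was picked for high values on the same Methoxychlor arrays, so a high share is partly built in. The share over all probes was not counted. For the higher and lower lists of Toxaphene, the share beyond all 12 was 79.8% and 48.6%. For those of Beta-benzene hexachloride it was 38.5% and 45.6%. Aroclor, with only 2 other Methanol chemicals, had 41.6% and 63.3%. DM13475 and DM11002 were dim in all 12 other Ethanol chemicals, whereas DM04714 and DM06490 reached mean levels of 10.1 and 13.5 in 1 of them. DM13475 had ratios of 2.99, 3.09, 3.34 and 3.45 (mean 3.22 ± 0.21, SD, n = 4, 9.30-fold, adjusted p = 1.2e-41). Its mean was -0.01 in Beta-benzene hexachloride, -0.52 in Toxaphene and -0.30 in Aroclor, and none of the 12 other Ethanol chemicals was called at it in either direction. On the scanner, its levels were 8.18 to 8.58 log2 units in Methoxychlor, while the other Ethanol chemicals had means of 6.14 to 6.61, a difference of 2.06 (adjusted p = 3.8e-69).

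DM11002 gave the same picture. Its Methoxychlor ratios were 4.24, 4.30, 4.36 and 4.43, a 20.1-fold rise (adjusted p = 5.9e-62), with means of 0.70 in Beta-benzene hexachloride, -0.13 in Toxaphene and 0.03 in Aroclor. The Methoxychlor arrays were the only ones of the 16 above 1. Their mean scanner level of 9.40 lay above the 6.19 to 7.09 of the 12 other Ethanol chemicals, although 3 of those were called higher than the control.

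DM04714 was the first probe named for a rise in Methoxychlor against the other Ethanol chemicals. Its Methoxychlor levels were 11.8, 11.9, 12.2 and 12.2, against means of 7.10 to 10.1 in the other chemicals, a difference of 3.59 (adjusted p = 5.7e-50). It also rose in Beta-benzene hexachloride, which had levels of 10.2, 10.4, 10.4 and 10.1 and a difference of 1.86 (adjusted p = 1.9e-25). The Toxaphene difference was 0.56 and passed the adjusted p (0.00012) but not the minimum change, and the Aroclor difference of 0.25 from the other Methanol chemicals did not pass (adjusted p = 0.19).

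DM06490 and DM09557 moved in opposite directions in Methoxychlor and Aroclor. DM06490 had Methoxychlor ratios of 3.65, 3.67, 3.70 and 3.80 and Aroclor ratios of -3.02, -2.99, -2.95 and -3.15. DM09557 had a mean ratio of 4.42 in Methoxychlor and -3.25 in Aroclor, and it was called higher in Beta-benzene hexachloride (1.46) and Toxaphene (1.48). Other chemicals were also spread at these probes: 7 of the 12 other Ethanol chemicals were called higher at each, and 5 were called lower at DM06490 and 4 at DM09557. DM05878 and DM07209 rose in Methoxychlor by 5.24 and 5.13, and in Toxaphene by 3.36 and 4.77, while at DM07209 Aroclor was lower than its control (-1.51).

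Of the Methoxychlor lower list, 293 of the 397 probes with a scanner value (73.8%) lay below the mean of each of the 12 other Ethanol chemicals. This list too was picked on the same arrays, and the share over all probes was not counted. DM08004, DM07982 and DM02255 were also bright in all 12. DM08004 had ratios of -8.43, -8.46, -8.13 and -8.10 (mean -8.28, 311-fold lower, adjusted p = 1.3e-78), whereas its mean was -0.29 in Beta-benzene hexachloride, -0.61 in Toxaphene and 0.61 in Aroclor. Scanner levels were 7.28, 7.27, 7.46 and 7.49 in Methoxychlor, and the lowest mean of the other Ethanol chemicals was 11.7, so no chemical of the vehicle reached down to it. The same held for DM07982, with a mean ratio of -8.90 (477-fold lower) and a mean level of 6.88 against 10.9 or more, and for DM02255, with -8.02 (260-fold lower) and 7.23 against 11.2 or more. At DM02255, however, 5 of the 12 other Ethanol chemicals were also called lower than the control, and 2 were called higher.

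DM01546 followed them at a lower level. It fell by 7.32 in Methoxychlor (ratios -7.42, -7.18, -6.93 and -7.76, adjusted p = 1.1e-67), where 3 of the 4 arrays stood above background at levels of 6.07 to 6.24. The other Ethanol chemicals had means of 7.41 or more, and 5 of the 12 were themselves called lower than the control.

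**Figure D3:**
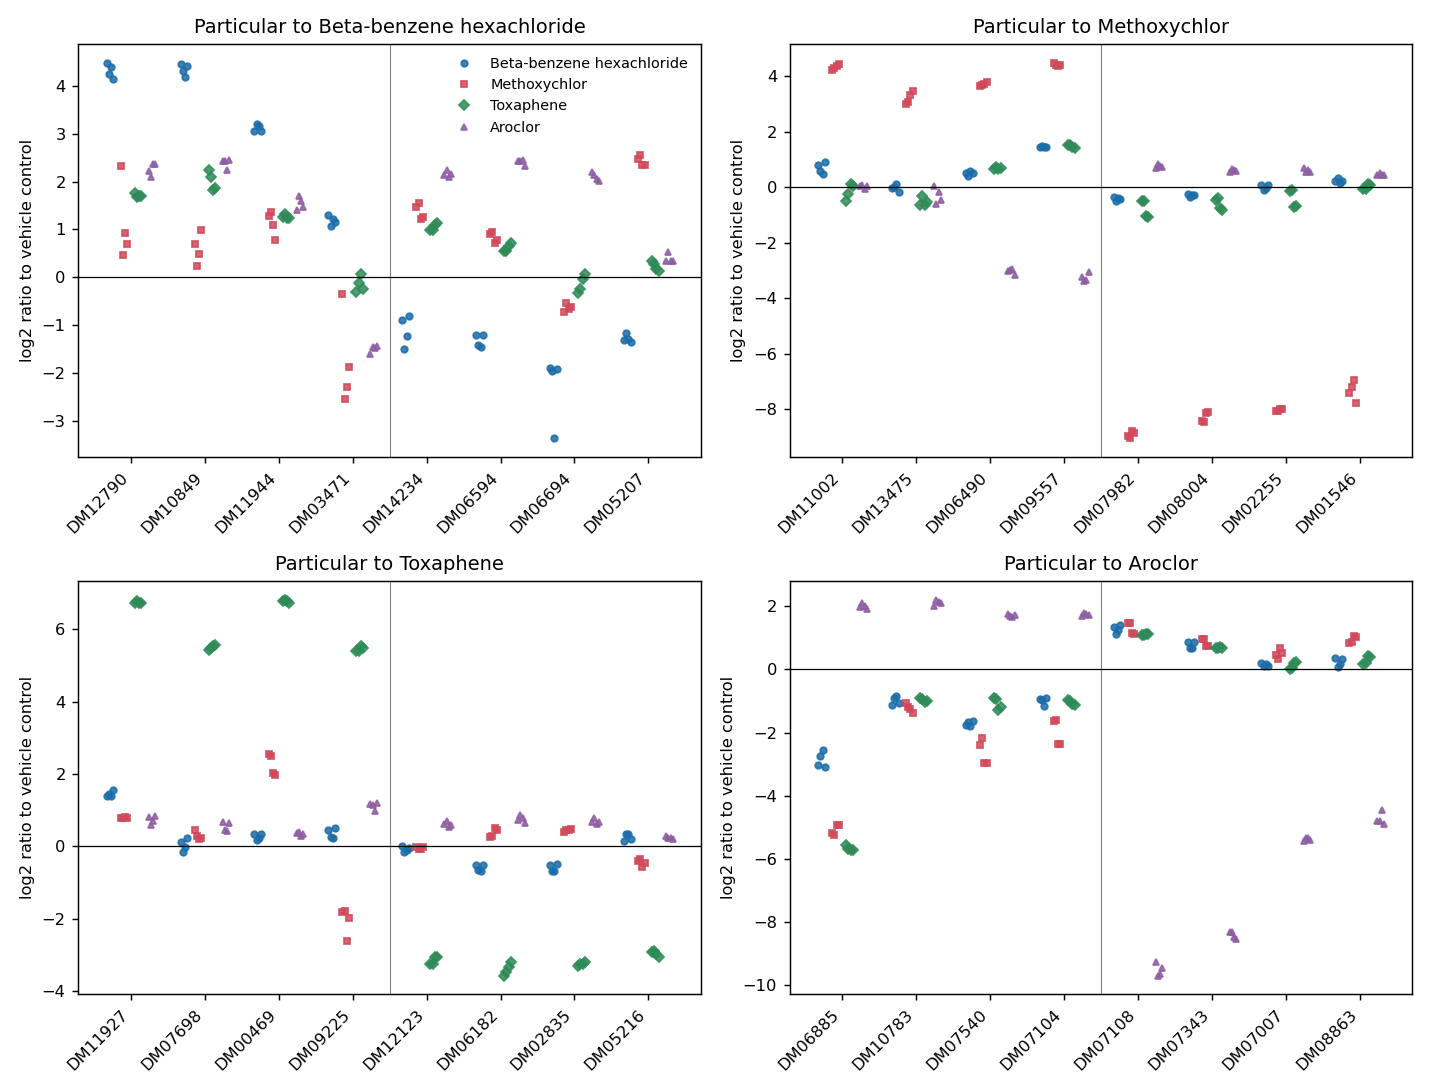
Deposited log2 ratio on each array for the 4 higher (left of each panel) and 4 lower (right) probes that differ most from the other compounds, in 1 panel for each compound. The means of the Methoxychlor lower probes lie between -8.90 and -7.32 with the other 3 compounds near 0, while at the 4 Aroclor higher probes the Ethanol compounds lie below 0 and Aroclor near 2.

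Toxaphene had the largest rise among the probes named by rule. DM00469 had ratios of 6.78, 6.81, 6.78 and 6.74 (mean 6.78 ± 0.03, SD, n = 4, 110-fold, adjusted p = 2e-48). It was also higher in Methoxychlor, with 2.54, 2.48, 2.03 and 1.97 (4.78-fold, adjusted p = 1.6e-14), and its means of 0.27 in Beta-benzene hexachloride and 0.35 in Aroclor did not pass the test. The Toxaphene level of 14.6 lay above all 12 other Ethanol chemicals, the highest of which was 12.1, but the other 2 Methanol chemicals had means of 11.7 and 14.1.

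DM11927 rose nearly as far. Its Toxaphene ratios were 6.73, 6.78, 6.72 and 6.72 (107-fold, adjusted p = 4.2e-63), against means of 1.44, 0.78 and 0.74 in Beta-benzene hexachloride, Methoxychlor and Aroclor. Of the other Ethanol chemicals 8 of 12 were called higher too, yet their mean levels ended at 8.71 and Toxaphene stood at 12.3. Here again 1 of the other Methanol chemicals reached 12.3.

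DM10268 and DM09225 stood higher in Toxaphene than in each of the 12 other Ethanol chemicals. DM10268 had ratios of 6.0, 6.07, 5.87 and 5.93 (62.6-fold) and a mean level of 11.3, against 6.47 to 7.54 in the other Ethanol chemicals (difference 4.33, adjusted p = 1.1e-56), and Methoxychlor was also called higher than the control, with a mean ratio of 1.86. DM09225 had ratios of 5.39, 5.39, 5.53 and 5.48 (43.7-fold) and a level of 12.1 to 12.2, against 5.98 to 9.26 (difference 4.66, adjusted p = 3.1e-72). Methoxychlor went the other way at DM09225, where its mean was -2.05 and 2 of its 4 arrays stood above background.

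DM07698 rose 45.6-fold in Toxaphene, with ratios of 5.42, 5.49, 5.54 and 5.58, but 11 of the 12 other Ethanol chemicals were called higher there as well. The other 2 Ethanol organochlorines were low instead. The levels of 6.27 to 6.39 in Beta-benzene hexachloride and 6.38 to 6.46 in Methoxychlor differed by -3.73 and -3.66 from the mean of the other Ethanol chemicals (adjusted p = 2.3e-10 and 4.8e-11), and 1 of those 12 chemicals was lower still. DM06262 had the same arrangement, with a Toxaphene mean of 5.5, a Methoxychlor mean of 1.39 and a Beta-benzene hexachloride mean of 0.41 that was not called, while 11 of 12 other Ethanol chemicals were higher.

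The 4 named lower probes particular to Toxaphene fell by 2.97 to 3.39, less far than DM11644 and DM04057, which it lowered together with other compounds. DM12123 had ratios of -3.27, -3.26, -3.08 and -3.06 (8.97-fold lower, adjusted p = 1.7e-12), while the means were -0.07 in Beta-benzene hexachloride, -0.05 in Methoxychlor and 0.61 in Aroclor. The difference between Beta-benzene hexachloride and Methoxychlor at this probe was -0.02, with a 95% interval of -1.08 to 1.03. DM06182 fell by 3.39, DM02835 by 3.26 and DM05216 by 2.97, and at each of these 3 probes 1 of the 12 other Ethanol chemicals had a still lower level.

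Beta-benzene hexachloride had the fewest changes of its own. DM10849 had ratios of 4.45, 4.31, 4.19 and 4.41 (20.3-fold, adjusted p = 4.5e-11), with 2.01 in Toxaphene, 2.39 in Aroclor and 0.60 in Methoxychlor, where the change did not pass the test (adjusted p = 0.33). DM11944 had ratios of 3.05, 3.19, 3.15 and 3.06 (8.65-fold, adjusted p = 6.1e-16) and was called higher in the other 3 compounds as well, at 1.13, 1.27 and 1.54. DM03471 was called higher in Beta-benzene hexachloride (1.19) and lower in Aroclor (-1.49) and in Methoxychlor (-1.77), where no array stood above background. At DM10849, DM11944 and DM12790, 11 of the 12 other Ethanol chemicals had a lower mean level than Beta-benzene hexachloride.

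DM04851 and DM06825 set Beta-benzene hexachloride above every other chemical of its vehicle. DM04851 had levels of 14.0, 14.3, 14.3 and 14.0, against means of 9.05 to 13.6, a difference of 3.49 (adjusted p = 6.3e-40). DM06825 had levels of 13.1, 13.1, 13.1 and 13.2, against 8.77 to 12.9, a difference of 2.42 (adjusted p = 2.2e-44). Aroclor was also higher at both than the other 2 Methanol chemicals, by 2.19 (adjusted p = 1.1e-19) and 1.21 (6.2e-17). Methoxychlor was higher than the other Ethanol chemicals at DM04851 (1.56, adjusted p = 2.3e-16), and at DM06825 it was called lower than the vehicle control (a ratio of -1.09).

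The deepest fall of Beta-benzene hexachloride was larger still in other compounds. DM11644 had ratios of -6.15, -6.24, -6.32 and -6.27 (75.9-fold lower, adjusted p = 1.7e-77), and it fell by 7.97 in Toxaphene and by 8.27 in Aroclor. Methoxychlor, at -0.63, -0.80, -0.87 and -0.94, was the exception and was not called because its mean of -0.81 misses the minimum change. Of the other chemicals, 8 of 12 in Ethanol and 2 of 2 in Methanol were called lower there. DM04454 likewise fell by 4.50, with -3.29 in Toxaphene, -3.60 in Aroclor and a Methoxychlor mean of -0.16 that was not called. DM05207, DM06594, DM14234 and DM06694 fell in Beta-benzene hexachloride by 1.28, 1.32, 1.11 and 2.28 and lay below the other 3 compounds. At DM14234 all of those 3 were called higher than their control, by 1.37 in Methoxychlor, 1.05 in Toxaphene and 2.16 in Aroclor.

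Aroclor had the deepest fall of any named probe. DM07108 had ratios of -9.26, -9.69, -9.65 and -9.46 (mean -9.52 ± 0.20, SD, n = 4, 732-fold lower than the Methanol control, adjusted p = 1.1e-54). In the Ethanol compounds it was higher than the control, at 1.27, 1.30 and 1.12 in Beta-benzene hexachloride, Methoxychlor and Toxaphene. The Aroclor level of 6.17, above background on 3 of 4 arrays, compares with 7.41 and 13.3 in the other 2 Methanol chemicals, 1 of which was also called lower.

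DM07343 went with it. Its Aroclor ratios were -8.33, -8.31, -8.47 and -8.55 (341-fold lower, adjusted p = 1.5e-59), against means of 0.77, 0.85 and 0.68 in the Ethanol compounds. Both probes were also called higher in all 3 Ethanol compounds than in the other Ethanol chemicals: DM07108 by 1.39, 1.49 and 1.20 and DM07343 by 1.24, 1.41 and 1.01 in Beta-benzene hexachloride, Methoxychlor and Toxaphene, while Aroclor differed from the other Methanol chemicals by -4.18 and -4.42. DM07007 had a mean ratio of -5.38 and DM08863 of -4.74 in Aroclor, and at each of them 1 of the other 2 Methanol chemicals was called lower.

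At DM06885 the deposited ratios set Aroclor above each Ethanol compound. On the scanner the gap to Methoxychlor and Toxaphene was smaller, and Beta-benzene hexachloride lay above Aroclor. The probe had Aroclor ratios of 1.98, 2.12, 2.01 and 1.91 (4.01-fold, adjusted p = 8.1e-24). Its means were -2.85, -5.07 and -5.67 in Beta-benzene hexachloride, Methoxychlor and Toxaphene. Its scanner levels, however, were 7.37 to 7.52 in Aroclor, 7.95 to 8.4 in Beta-benzene hexachloride, 6.79 to 6.95 in Methoxychlor and 6.46 to 6.56 in Toxaphene. All 12 other Ethanol chemicals were called lower there. The references implied by the deposited ratios correlate at 0.974 or less between Ethanol and Methanol. Compound and vehicle cannot be told apart in these differences.

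DM10783 had a mean ratio of 2.11 in Aroclor at a level of 7.06, against levels of 6.52, 6.44 and 6.52 in the Ethanol compounds, and 7 of the 12 other Ethanol chemicals were called lower. DM07104 had a mean ratio of 1.74 in Aroclor and was called higher in the other 2 Methanol chemicals too, while 7 of 12 other Ethanol chemicals were called lower. DM07540, with 1.70 in Aroclor, was called higher in 1 of the other 2 Methanol chemicals and lower in 7 of the 12 Ethanol ones. DM08907 had the largest Aroclor rise among the probes named by rule, at 4.78, 4.61, 4.85 and 4.77 (26.9-fold, adjusted p = 1.5e-24), and Toxaphene was also higher there, at 5.13, 5.09, 5.22 and 5.14 (35.4-fold). Methoxychlor was lower at DM08907, with a mean of -3.44. DM03411 repeated this, with means of 3.63 in Aroclor, 2.89 in Toxaphene and -1.51 in Methoxychlor. DM06742 lay 4.0 above the other Methanol chemicals in Aroclor (adjusted p = 4.6e-19). In Methoxychlor 2 of its 4 arrays stood above background, at levels of 6.01 to 6.21 on the 4 arrays, so its distance from the other Ethanol chemicals is not given.

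Lists of calls from different vehicles do not share a control. Of the 607 probes higher in Aroclor, 145 were higher in Toxaphene (23.9% of the Aroclor list, 18.1% of the Toxaphene list), 111 in Beta-benzene hexachloride (18.3% and 24.1%) and 101 in Methoxychlor (16.6% and 6.82%). Called lower among the 607 were 39 in Toxaphene (6.43%), 45 in Beta-benzene hexachloride (7.41%) and 105 in Methoxychlor (17.3%). Over all probes, 5.93% were higher and 6.46% lower in Toxaphene, 3.41% and 6.06% in Beta-benzene hexachloride, and 11% and 12.4% in Methoxychlor. Of the 535 lower in Aroclor, 97 were lower in Methoxychlor (18.1% and 5.80%), 88 in Toxaphene (16.4% and 10.1%) and 50 in Beta-benzene hexachloride (9.35% and 6.12%). Called higher among the 535 were 66 in Methoxychlor (12.3%), 33 in Toxaphene (6.17%) and 32 in Beta-benzene hexachloride (5.98%).

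The 4 compounds were compared in 6 pairs at 1/10 LC50 and 24 h, with p-values adjusted over all probes and pairs together. Beta-benzene hexachloride and Toxaphene differed least, with 463 probes higher (3.43% of 13481) and 620 lower (4.6%) in Beta-benzene hexachloride. Methoxychlor minus Toxaphene gave 929 higher (6.89%) and 970 lower (7.2%), and Beta-benzene hexachloride minus Methoxychlor 1013 higher (7.51%) and 1000 lower (7.42%). With quantile-normalized ratios the totals were 1783, 1801 and 2032 in the same order, so the lead of the closest pair was small there. Across vehicles, Beta-benzene hexachloride minus Aroclor gave 783 higher (5.81%) and 1294 lower (9.6%), or 1705 and 1811 with quantile-normalized ratios. Toxaphene minus Aroclor gave 1020 (7.57%) and 1174 (8.71%), and Methoxychlor minus Aroclor 1652 (12.3%) and 1829 (13.6%).

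**Figure D4:**
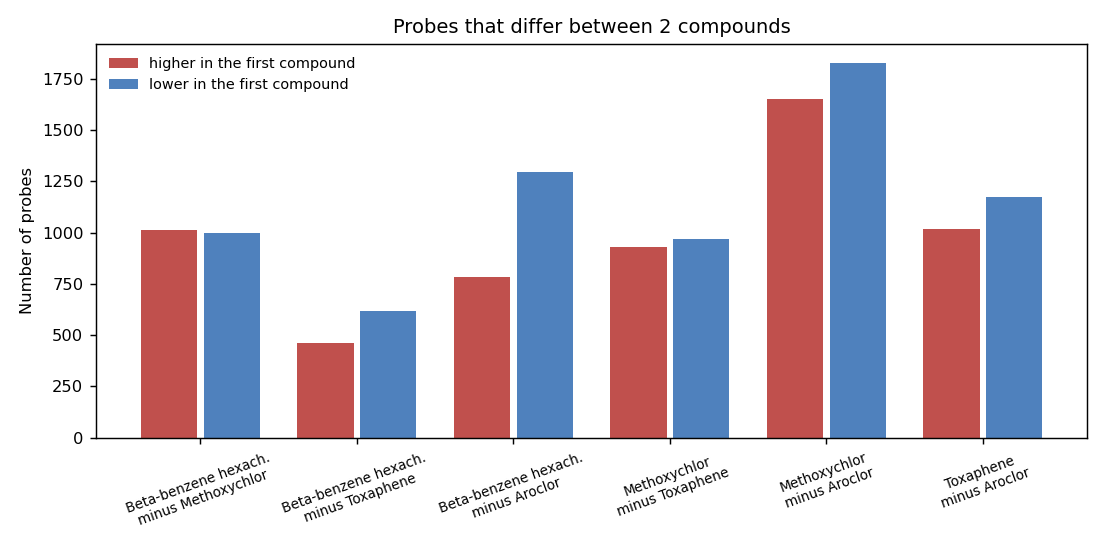
Number of probes that differ between 2 compounds, higher or lower in the first-named, on the deposited log2 ratios with p-values adjusted over the 6 pairs. Beta-benzene hexachloride and Toxaphene differ at the fewest (463 and 620) and Methoxychlor and Aroclor at the most (1652 and 1829).

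The pair with the fewest calls had the smallest median absolute difference and the pair with the most calls the largest, while the 4 pairs between them did not keep the order of the counts. The median absolute difference was 0.32 between Beta-benzene hexachloride and Toxaphene, 0.43 between Methoxychlor and Toxaphene, and 0.45 between Beta-benzene hexachloride and Methoxychlor. Against Aroclor it was 0.39 for Beta-benzene hexachloride, 0.43 for Toxaphene and 0.59 for Methoxychlor. The 95% interval of the difference lay within 1 log2 unit of 0 for 67.1% of probes in the closest pair and 48.3% in the farthest. On scanner values, which need no control and are less spread for dim probes, Beta-benzene hexachloride minus Toxaphene called 461 probes (3.23% of 14276), Methoxychlor minus Toxaphene 835 (5.85%) and Beta-benzene hexachloride minus Methoxychlor 828 (5.8%).

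Methoxychlor and Toxaphene moved some probes in opposite directions. DM07307 had Methoxychlor ratios of -3.12, -3.05, -3.56 and -3.49 and Toxaphene ratios of 4.54, 4.35, 4.57 and 4.58, a difference of -7.81 for Methoxychlor minus Toxaphene (95% interval -8.26 to -7.37, adjusted p = 1.9e-57). DM08083 was nearly identical, with means of -3.41 in Methoxychlor and 4.44 in Toxaphene. Beta-benzene hexachloride lay between them at both, with means of 0.12 and 0.09 that did not pass the test. DM11644 and DM04057 went the other way, since Methoxychlor had levels of 12.5 to 12.8 and 12.2 to 12.5, whereas the Toxaphene arrays had 6.69 to 6.84 and 6.90 to 6.98.

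Of the 21 probes at which the close array pairs of Toxaphene differed by at least 1, 3 are named here. DM00608 had levels of 15.6, 15.7, 15.7 and 15.5 in Beta-benzene hexachloride, against 13.3, 13.3, 7.96 and 7.95 in Toxaphene and 9.12, 9.06, 6.54 and 6.61 in Methoxychlor. DM02924 had 11.2, 11.2, 8.59 and 8.62 in Toxaphene, and DM04369 had 8.55, 8.51, 6.31 and 6.46. Beta-benzene hexachloride was above Methoxychlor and Toxaphene on all arrays at these 3 probes, but the size depends on the pair of arrays, and 1 Beta-benzene hexachloride array was saturated at DM02924. DM09934 split Beta-benzene hexachloride instead, with levels of 9.89, 7.48, 7.45 and 9.89, while Methoxychlor had 13.9 to 14.1, Toxaphene 13.9 to 14.2 and Aroclor 14.3 on all 4 arrays.

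Among the 105 pairs of the 15 Ethanol chemicals, the number of probes called on scanner values ran from 75 to 2246 with a median of 599. The 3 pairs of the organochlorines, with 461, 828 and 835, were not the closest ones. Beta-benzene hexachloride differed least from Bis2-ethylhexyl phthalate (199 probes) and Pyripoxyfen (226), Methoxychlor from Pyripoxyfen (536) and Nonylphenol (538), and Toxaphene from Bis2-ethylhexyl phthalate and Nonylphenol (388 each). All 3 differed most from Chloroform. Set against the mean of the other 14 Ethanol chemicals, Methoxychlor ranked 2 of 15 by calls (762, after 895 for Chloroform), Toxaphene ranked 10 (268, tied with 2-chloro vinyl ether) and Beta-benzene hexachloride 12 (134).

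The 3 Ethanol compounds were also tested as a class against the 12 other Ethanol chemicals, with the chemical as the unit. Of 14276 probes, limma called 0 at an adjusted p under 0.05 (0%), where the smallest adjusted p was 0.86, and 682 had an unadjusted p under 0.05 (4.78%). The smallest unadjusted p was 0.00016 at DM06449, where the mean of the 3 differed from that of the other 12 by -2.65.

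Counted compound by compound against the other chemicals of its own vehicle, 6 of the 14276 scanner probes were lower in all 4 organochlorines and 0 were higher. Taken singly, Beta-benzene hexachloride was called lower there at 0.238% of probes, Methoxychlor at 2.75%, Toxaphene at 0.644% and Aroclor at 1.17%. These 6, DM02230, DM03145, DM04059, DM05279, DM06030 and DM06449, are described as a set chosen after their values were seen. A further probe, DM07908, differed by -1.44, -2.11 and -1.03 in Beta-benzene hexachloride, Methoxychlor and Toxaphene, while in Aroclor its difference of -0.54 passed the adjusted p (0.008) but not the minimum change. The p-values of this comparison, here and for the 6 probes below, leave out the spread between chemicals, which is the error of the class test.

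DM06449 had levels of 7.61, 7.60, 7.49 and 7.67 in Beta-benzene hexachloride, 8.45, 8.51, 8.17 and 8.22 in Methoxychlor and 9.28, 9.28, 9.13 and 9.14 in Toxaphene, against 9.48 to 13.1 (median 10.8) on the arrays of the other Ethanol chemicals. None of the 12 arrays overlapped the others. They differed from the mean of the others by -3.43 (10.8-fold lower, adjusted p = 1.2e-31), -2.69 (6.44-fold, 1e-24) and -1.82 (3.53-fold, 2.1e-14). In Aroclor the levels were 8.44, 7.77, 7.77 and 8.34, against 9.57 to 12.9 in the other Methanol chemicals, a 9.11-fold difference (adjusted p = 5.3e-24).

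DM06030 was separated almost as fully. Its levels were 6.61, 6.57, 6.47 and 6.60 in Beta-benzene hexachloride, 7.59, 7.69, 7.29 and 7.25 in Methoxychlor and 7.23, 7.20, 7.06 and 7.11 in Toxaphene, against 7.61 to 12.1 on the other Ethanol arrays. Only array 2 of Methoxychlor reached into the range of the others. Beta-benzene hexachloride was 9.82-fold lower (adjusted p = 5.8e-51), Methoxychlor 5.29-fold (1.8e-39) and Toxaphene 6.54-fold (8.1e-44). Aroclor, at 7.53, 7.53, 7.56 and 7.51 against 8.11 to 11.1, was 3.74-fold lower (5.4e-25).

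DM02230 was lowest in Beta-benzene hexachloride (7.54, 7.55, 7.65 and 7.67) and Aroclor (8.14, 7.52, 7.56 and 8.07). Those were 7.58-fold and 8.13-fold below the other chemicals of their vehicle. Methoxychlor was 6.05-fold lower (8.10, 8.14, 7.71 and 7.76) and Toxaphene 2.5-fold lower (9.32, 9.26, 9.12 and 9.13). The other Ethanol arrays began at 8.75, so the Toxaphene arrays overlapped them and those of the other 2 Ethanol compounds did not. The other Methanol arrays began at 9.04, above all 4 Aroclor arrays.

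DM03145 and DM04059 had folds of like size. At DM03145, Beta-benzene hexachloride was 9.82-fold lower than the other Ethanol chemicals, Methoxychlor 5.13-fold and Toxaphene 5.51-fold, and Aroclor was 5.04-fold lower than the other Methanol chemicals. At DM04059 the values were 8.32-fold, 4.56-fold, 4.27-fold and 4.86-fold in the same order. For both, the arrays of Methoxychlor and Toxaphene overlapped the lowest of the other Ethanol arrays, which began at 9.66 and 10.0. DM05279 was 5.83-fold lower in Beta-benzene hexachloride, 3.03-fold in Methoxychlor, 2.43-fold in Toxaphene and 3.99-fold in Aroclor.

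The contrast with the vehicle control differed between the solvents at these 6 probes. All 3 Ethanol compounds were called lower than the Ethanol control at each of them, with means of -1.66 to -5.41. Aroclor was called lower than the Methanol control at DM02230 (-1.02, adjusted p = 0.00042) and DM06449 (-1.16, adjusted p = 9.1e-07) only. The other 4 had ratios of -0.46, -0.26, -0.47 and -0.38 at DM03145, DM04059, DM05279 and DM06030, where DM05279 passed the adjusted p (0.014) but not the minimum change. Aroclor thus lay below the other Methanol chemicals at all 6 probes but near its control at 4 of them.

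Low levels of these probes were not particular to organochlorines. Ordered by the mean level of the 6 probes over all 36 chemicals, Nickel (7.31), Arsenic (7.62) and Zinc (7.72) came first, and Beta-benzene hexachloride (7.76) took place 4. Selenium, Phenanthrene and Copper followed, then Aroclor (8.39), Methoxychlor (8.55) and Toxaphene (8.91) in places 8, 9 and 10. Chloroform in Ethanol (12.7) and Methylfarnesoate in Methanol (12.2) were highest. The levels of the 6 probes went together, with a Pearson correlation of 0.78 to 0.99 between any pair of them over the 32 other chemicals, a description over chemicals that differ in vehicle.

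**Figure D5:**
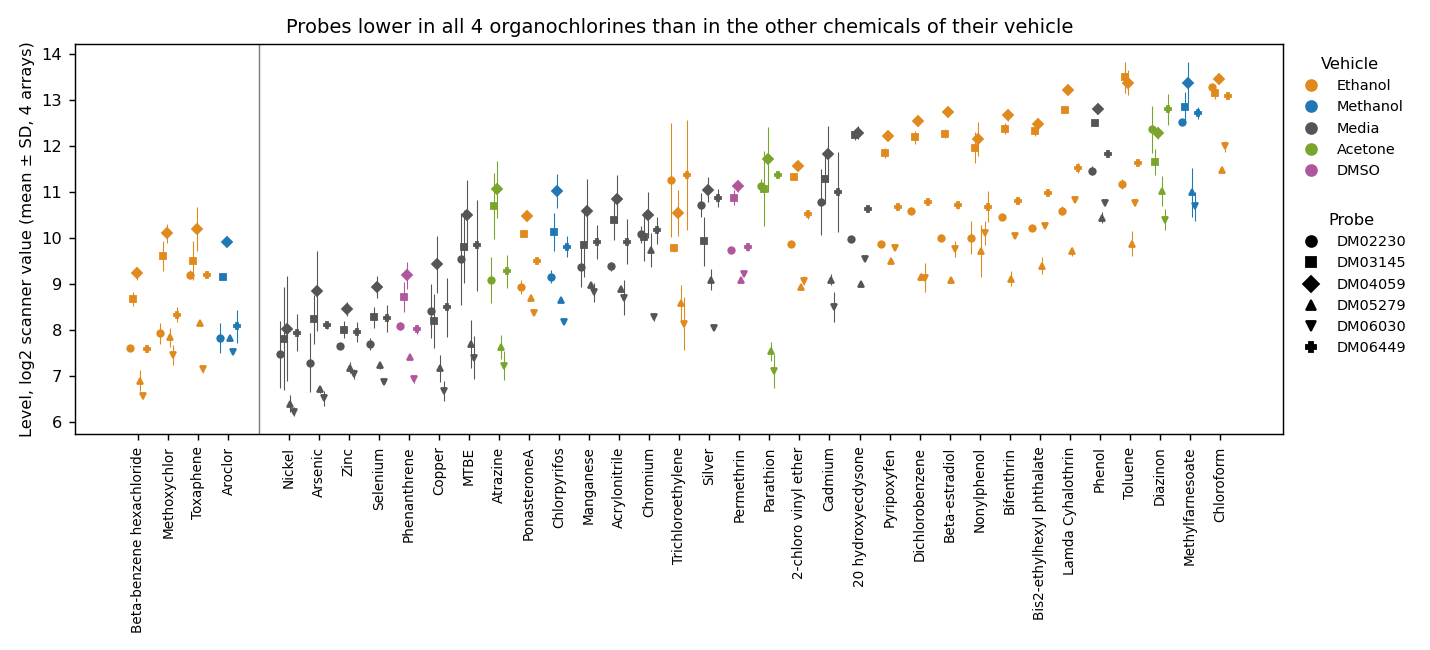
Scanner level (log2, mean ± SD of 4 arrays) of the 6 probes in the 4 organochlorines, left of the line, and in the other 32 chemicals ordered by the mean of the 6, coloured by vehicle. The organochlorines lie below all 12 other Ethanol and both other Methanol chemicals in the mean of the 6 probes, while Nickel, Arsenic and Zinc in plain medium lie as low or lower.

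No slide or scan date is in the files used here, so each chemical and the batch in which it was processed cannot be told apart.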

How the data were processed

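Scanner tables held each spot's foreground and background intensity, and the deposited value table held log2 values: the authors' ratio of each array to its vehicle reference, by steps not given in the sources used here. On 6641 probes above background on all arrays, differences between the deposited columns matched those of log2 foreground minus background (slope 0.984 to 0.996), and all 16 columns matched their own array best. The 20 control columns match no listed sample and were not used here, so the vehicle contrast tests 4 ratios against 0. limma 3.58.1 (R 4.3.3) fitted 36 group means to all arrays (108 residual df), with Benjamini-Hochberg adjustment over all probes, and over all 6 pairs for pairs. Scanner values were normexp-corrected (offset 50), quantile normalized on log2 and averaged over duplicate spots; 62 probes were dropped for the flag scores deposited with each spot, except where the flag marked saturation. Above background meant exceeding the negative control spots' mean plus 3 SD.

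A probe named for its ratio to the vehicle was above background on at least 3 of 4 arrays, unsaturated, with ratios of 1 sign and a measurable implied reference. Pair probes had to be above background on all 8 arrays, and probes named against other chemicals on at least 3 of 4, with no rule on saturation or sign. The text could name the 6 higher and 6 lower shared probes with the largest smallest ratio, 4 and 4 particular to each compound, 3 and 3 per vehicle contrast and per contrast with other chemicals, and 2 and 2 per Ethanol pair. The compounds, lists and tests were chosen with earlier results of these data known. Replicate numbers paired no arrays (correlation of deviations -0.22 to 0.33 over 24 pairings). The number of arrays limits the precision.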

Additional observations from a re-analysis of the deposited data

Results flagged for a closer look

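Among the 93 groups of 4 ratios behind the named values, 6 (6.45%) held an array whose gap to its nearest neighbour took up more of the group's range than Dixon's 95% critical value, and chance gives about 1 in 20. DM06694 in Beta-benzene hexachloride stood at -3.37 on array 3, against a mean of -1.92 on the other 3, and 3 of the 4 arrays stood above background there. DM00150 in Aroclor was 1.57 on array 4, against 1.16. The other 4 gaps were small in size: DM06030 at -5.62 (array 3, others -5.33), DM07400 at 1.81 (array 1, others 1.53) and DM11176 at -1.70 (array 3, others -1.5) in Beta-benzene hexachloride, and DM11927 at 6.78 (array 2, others 6.73) in Toxaphene. Leaving the array out changed none of these 6 calls.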

How the results depend on the processing

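Of the 93 named changes against the vehicle, only DM12790 in Methoxychlor failed the adjusted p under another setting. It did so with the error widened for the control arrays and without Methoxychlor replicate 1. This check of the named changes did not apply the minimum change. Replicate numbers did not pair the arrays, and 7 of 16 arrays were closest to their own number. With the replicate number as a block, all 20 counts of calls stayed within 1.5 times: the block changed no count by more. Quantile normalization of the ratios moved the vehicle counts to 2329 in Beta-benzene hexachloride and 2130 in Aroclor, and the shared changes to 96. It moved Beta-benzene hexachloride minus Toxaphene to 1783 and minus Aroclor to 3516, and the changes particular to Beta-benzene hexachloride, Methoxychlor, Toxaphene and Aroclor to 267, 418, 309 and 899. The cause was not tested.

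Without the minimum change the vehicle counts were 6908, 9428, 7942 and 5695 in the same order of compounds, the shared changes 980 and the particular ones 785, 3637, 1175 and 1779. The pairs then gave 6944 (Beta-benzene hexachloride minus Methoxychlor), 5166 (minus Toxaphene), 6345 (minus Aroclor), 6553 (Methoxychlor minus Toxaphene), 8209 (minus Aroclor) and 6759 (Toxaphene minus Aroclor). Scanner values gave 828, 461 and 835 for the pairs within Ethanol, in that order. Against the other chemicals of the vehicle, counts were 3334, 8349, 5816 and 5004 without the minimum change, 407, 2291, 869 and 690 with floored foreground minus background, and 300, 1873, 654 and 727 with deposited ratios. The probes called in all 4 numbered 189 without the minimum change and 10 with floored values. All 6 low probes were among them under each setting except median centring, which kept 5.

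Leaving out 1 replicate gave 1263 to 1284, 3100 to 3282, 1658 to 1715 and 1103 to 1145 vehicle calls, 43 to 49 shared changes and 6 low probes. Particular changes ranged over 60 to 92, 671 to 794, 192 to 224 and 434 to 463. Pairs ranged over 1927 to 2130, 994 to 1162, 2005 to 2062, 1821 to 2050, 3393 to 3532 and 2115 to 2182, and the comparison with other chemicals over 117 to 121, 730 to 844, 258 to 288 and 229 to 232. The class test called 0 throughout. Only 7 of the 26 higher and 9 of the 22 lower shared probes stood above background on all 16 arrays, so dim signal limits most of that list. Whether the list is dimmer than probes in general was not tested.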
